A study of Homo sapiens with 18 samples.

Results

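The comparison set 3 libraries of GM12878 cells labelled as a knockout of cRel against 3 control libraries, 6 of the 18 libraries of the series, over the 12381 genes of 17155 whose mean over all 18 libraries was at least 10 normalised read counts. GM12878 is an Epstein-Barr virus (EBV)-transformed lymphoblastoid B-cell line, and the labels give every library the genotype "Wildtype LMP1", after the viral membrane protein LMP1. Cells of each group were transduced with lentivirus carrying a guide RNA, either a control guide (named pxpr in the labels) or one for p50, p52, RelB, RelA or cRel, and kept in 3 µg/ml puromycin for 5 days before knockout was checked by immunoblot, per the labels' protocols. The 6 groups therefore share the cell line, the vector and the selection, and differ in the guide. The titles call the libraries of a group biological replicates. Whether the cells of a group were a pool or a clone, and whether these replicates were separate cultures, is not stated in the sources at hand. Each p-value therefore reflects the spread among these libraries alone, which may not cover that between separately made knockouts.

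cRel, the product of REL, belongs to the NF-kB family of transcription factors, which bind DNA as dimers and are held inactive by inhibitor proteins of the IkB type. It is most abundant in lymphoid cells, carries a transactivation domain, and in B cells is known for its part in proliferation, survival, class switching and the germinal-centre response. LMP1 imitates an activated CD40 receptor and keeps NF-kB signalling on in lymphoblastoid cells.

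Promoters are shown for 3 genes that carry an NF-kB consensus match of 10 bases and whose mRNA passed the test below: CCL22 and EBI3, which fell, and GBP4, which rose. Each sequence is the 250 bases before the RefSeq gene start on GRCh38.p14, written 5′ to 3′ on the gene's strand, with the match in capitals. CCL22 (chr16:57358533-57358782, plus strand) holds 2 overlapping matches, EBI3 (chr19:4229273-4229522, plus strand) holds 1, and GBP4 (chr1:89198943-89199192, minus strand) holds 1 on the opposite strand.
CCL22: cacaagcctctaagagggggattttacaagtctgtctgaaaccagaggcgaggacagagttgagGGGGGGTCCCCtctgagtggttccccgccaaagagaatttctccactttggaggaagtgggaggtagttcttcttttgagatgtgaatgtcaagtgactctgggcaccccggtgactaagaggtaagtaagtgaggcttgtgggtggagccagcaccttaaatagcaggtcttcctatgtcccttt
EBI3: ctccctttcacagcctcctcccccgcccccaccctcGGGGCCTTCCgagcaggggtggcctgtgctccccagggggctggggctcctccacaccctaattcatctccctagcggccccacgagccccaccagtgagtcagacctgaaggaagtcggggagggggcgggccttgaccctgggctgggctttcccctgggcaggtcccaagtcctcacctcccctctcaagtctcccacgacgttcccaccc
GBP4: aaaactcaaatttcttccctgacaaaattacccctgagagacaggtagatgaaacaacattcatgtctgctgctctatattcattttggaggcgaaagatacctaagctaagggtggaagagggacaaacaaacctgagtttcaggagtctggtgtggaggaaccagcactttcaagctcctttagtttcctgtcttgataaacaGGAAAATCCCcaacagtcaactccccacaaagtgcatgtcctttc
A match on either strand occurs in 9.57% of the 27305 RefSeq promoter windows of this length. A promoter was found for 9332 of the 12381 tested genes, under 80%, so a comparison of the motif between groups of genes would be void and is not given. A match is a run of letters and does not show binding.

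The libraries held 20945886 to 37473129 recovered reads in the control and 22149247 to 26848210 in the cRel-labelled group, and the B-cell genes MS4A1, PAX5, CD79A, CD79B and CD22 were abundant in all 6, with values from 1406 to 29502. Control 3 was the deepest and deviated from its group by transcript length. Across genes, length and deviation from the group mean had a rank correlation of -0.53 in control 3, 0.29 in control 1 and 0.43 in control 2, and of -0.14 to 0.19 in the cRel-labelled libraries. Genes are not independent replicates, and these values only describe the libraries. Counts below are given with and without control 3. A named gene that passed the test also passed in each of the 6 fits that left out 1 control or cRel-labelled library, with exceptions. These are given by adjusted p-values without a library in parentheses, or by a stated loss of calls.

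REL was examined first, as a check of the label. REL (ENSG00000162924) stood at 1554, 1717 and 856 normalised read counts in controls 1 to 3, against 1298, 1315 and 1282 in the cRel-labelled libraries, which lay between control 3 and the other controls. The difference did not pass the test (log2 fold change -0.02, SE 0.19, adjusted p = 0.96) and was -0.33 without control 3 (adjusted p = 0.31). The label of this group therefore rests on the titles and on the immunoblot that the protocols state, and its libraries are written as cRel-labelled throughout. RELB, which encodes a partner of p52 and p50, was the subunit gene that passed: it stood at 3422, 3137 and 3399.7 in the controls and 4567, 4318 and 4081 in the cRel-labelled libraries, with no overlap (log2 fold change 0.38, SE 0.06, adjusted p = 3.7e-04). NFKB1, NFKB2 and RELA did not pass, with log2 fold changes of 0.13, 0.13 and -0.02.

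Of the genes tested, 754 passed at an adjusted p under 0.05 by limma, 6.09% of all, with 516 higher (4.17%) and 238 lower (1.92%) in the cRel-labelled libraries. Without control 3 there were 481, 3.88% of all (342 higher, 2.76%, and 139 lower, 1.12%), of which 452 were among the 754, and there were 475 and 448 without cRel-labelled libraries 2 and 3. In bulk RNA, a change in the share of cells that express a gene and a change in RNA per cell cannot be told apart. Most changes were small. The median fold was 1.36 among the genes that rose and 1.32 among those that fell, and 63 rose and 30 fell by at least 2-fold. In 749 of the 754 the 3 libraries of one group lay wholly above the other 3, against 26.7% of all genes tested. The calls of 348 genes, 258 higher and 90 lower, held in each of the 6 fits that left out a library. Genes that rose had long transcripts, with a median longest transcript of 5003.5 bases, against 2999 for those that fell and 3628 for all genes tested. Transcript length also separated control 3 from the other controls, and its part in these counts was examined only by a length correction, under which 854 of 12363 genes with a length were called (6.91%), 548 higher (4.43%) and 306 lower (2.48%), with 669 of the 754 still called.

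**Figure D1:**
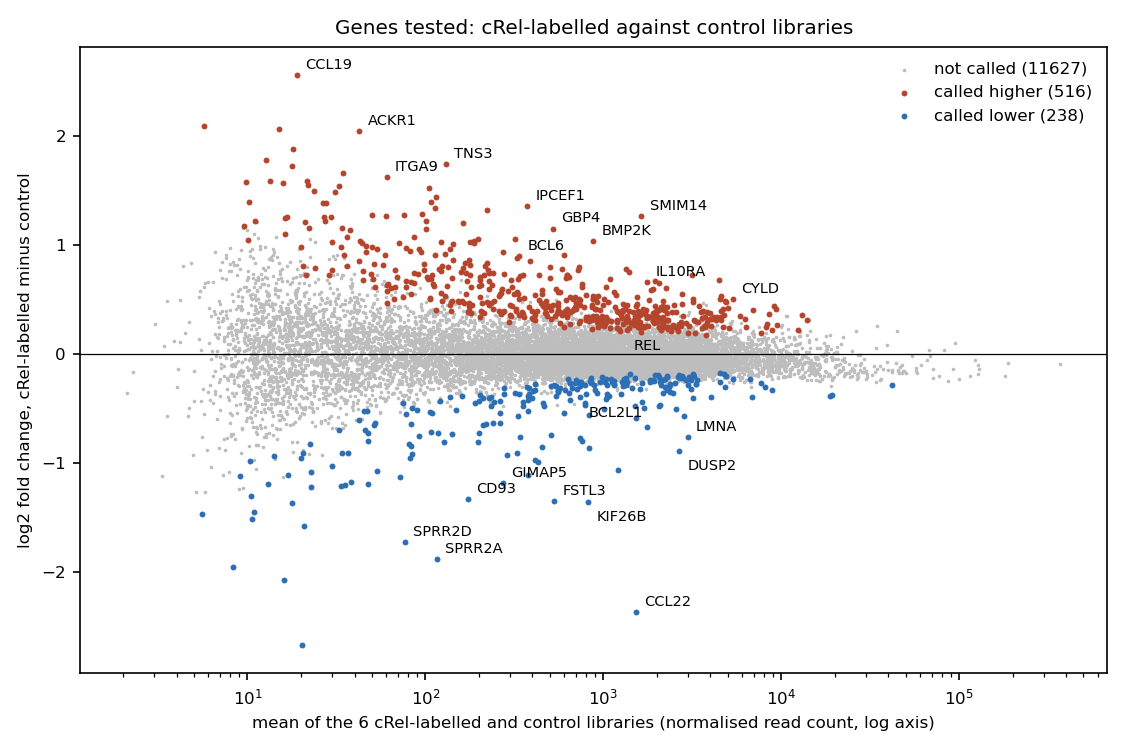
Log2 fold change of cRel-labelled against control libraries (vertical axis) by the mean normalised read count of the 6 libraries (horizontal log axis) for the 12381 genes tested. Red points mark the 516 genes called higher and blue points the 238 called lower; CCL22 lies far below the other abundant genes, and REL lies at the zero line.

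The genes ranked here were called, had a group mean of at least 100 and showed no overlap between the groups. Non-overlap in the 15 lowest and 15 highest genes was therefore required by the rule. The lowest fold change among the genes ranked was that of CCL22, a chemokine that draws CCR4-bearing T cells. CCL22 stood at 2831, 2353 and 2494 in the controls, against 450.1, 567 and 464 in the cRel-labelled libraries. Every control exceeded every cRel-labelled library more than 4-fold (log2 fold change -2.37, SE 0.08, adjusted p = 9.8e-16), and without control 3 the log2 fold change was -2.39. SPRR2A and SPRR2D, small proline-rich proteins of the epidermal envelope whose reads can be split between close copies, fell 3.70-fold and 3.31-fold. KIF26B, an atypical kinesin, stood at 1291, 1180.0 and 1082 in the controls and 472, 458 and 446 in the cRel-labelled libraries. FSTL3, a secreted protein that binds activin, fell 2.55-fold, and CD93, a transmembrane lectin-like receptor, fell 2.53-fold. SIRPA, a receptor for CD47, stood at 548, 472 and 528 against 239.6, 242 and 229.6, with no overlap. FAM102B fell 2.10-fold, CD9, a tetraspanin, 1.99-fold, CEBPD, a basic leucine-zipper factor, 1.95-fold, LTK, a receptor tyrosine kinase, 1.91-fold and NEB, the giant actin-binding protein nebulin, 1.90-fold. GIMAP5, GIMAP7 and IFITM1 complete the 15 lowest genes and are described with their families.

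The highest fold change among the genes ranked by the same rule was that of TNS3, tensin 3, which links integrins to actin. TNS3 stood at 65.1, 62.1 and 51.1 in the controls and 210.4, 192 and 198 in the cRel-labelled libraries, 3.35-fold higher with no overlap (adjusted p = 1.9e-07). The guidance ligand SEMA5A rose 2.87-fold, KIAA1671 2.70-fold, the basement-membrane protein FRAS1 2.62-fold, IPCEF1, which binds exchange factors of ARF GTPases, 2.56-fold and the transglutaminase TGM2 2.53-fold. Paired receptors of myeloid cells were among them: PILRA, an inhibitory receptor, stood at 133, 94.6 and 156 in the controls and 327, 307 and 312 in the cRel-labelled libraries, and TREM1, an activating receptor, at 59.5, 52.2 and 54.9 and 121, 149 and 141. Neither pair of groups overlapped, as the ranking required. CSRNP3, a nuclear protein, rose 2.41-fold, the palmitoyltransferase ZDHHC14 2.29-fold, the phospholipase PLCB1 2.22-fold and the orphan nuclear receptor NR4A2 2.10-fold. SMIM14, a small membrane protein of the endoplasmic reticulum, stood at 860.1, 1011 and 1019.9 against 2292, 2482 and 2165 (log2 fold change 1.26, SE 0.08, adjusted p = 1.8e-09). NTNG1, a membrane-anchored netrin, rose 2.33-fold, with an adjusted p of 0.012 that missed the threshold in 3 fits (adjusted p = 0.060 without control 1, 0.054 and 0.052 without cRel-labelled libraries 1 and 3). The guanylate-binding protein GBP4 completes the list and is described with its family.

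Genes linked to cRel in lymphocytes moved in both directions. Of 41 tested genes of this list, 7 rose and 10 fell, 41.5% against 6.09% of all genes, with a median log2 fold change of -0.14 (all genes -0.02). The list was drawn up with results of these libraries known, so its counts are a description. Without control 3, 6 rose and 6 fell, and 12 of the 17 were called in both fits. The fall was led by CCL22, then by DUSP2, a nuclear phosphatase that acts on MAP kinases, at 3305, 3266 and 3828 in the controls and 1825, 1993 and 1774 in the cRel-labelled libraries (log2 fold change -0.89, SE 0.08, adjusted p = 1.7e-07). BCL2L1, which encodes the survival protein BCL-xL, stood at 2123, 2095 and 2309.9 against 1391, 1407 and 1290.1 (log2 fold change -0.67, SE 0.07, adjusted p = 1.7e-06). For both genes the groups were far apart and each was called under every setting tried. EBI3, a subunit shared by IL-27 and IL-35, fell 1.32-fold, from 4598 ± 313 to 3478 ± 83.0 (SD, n = 3). MYC, the growth regulator, fell 1.32-fold, from 7779.9 ± 382 to 5899 ± 233 (SD, n = 3, adjusted p = 0.0060).

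A further 4 fell with calls that depended on single libraries. They were BATF, an AP-1 factor of B-cell activation (-0.36 on the log2 scale), the survival gene BCL2A1 (-0.47), PRDM1, the plasma-cell regulator BLIMP-1 (-0.37), and TNF (-0.37). Their adjusted p missed the threshold in several fits: BATF (0.14 without control 3, 0.080 and 0.082 without cRel-labelled libraries 2 and 3), BCL2A1 (0.056 and 0.11 without controls 1 and 3, 0.12 and 0.096 without cRel-labelled libraries 1 and 3), PRDM1 (0.092 and 0.068 without controls 2 and 3, 0.081 and 0.12 without cRel-labelled libraries 1 and 2) and TNF (0.052 and 0.25 without controls 1 and 3, 0.24 without cRel-labelled library 2). On the other side, CD274, the checkpoint ligand PD-L1, stood at 654, 538 and 615 in the controls and 788, 834 and 945 in the cRel-labelled libraries, 1.42-fold higher with no overlap. Lymphotoxin beta, LTB, stood at 143, 172 and 163 against 279, 303 and 269, a rise of 1.78-fold (adjusted p = 0.0015). The cytokine IL15 rose 1.44-fold, and the interferon regulatory factors IRF1 and IRF8 rose 1.25-fold and 1.23-fold. The death receptor FAS rose 1.25-fold (adjusted p = 0.014), a call lost in 2 fits (adjusted p = 0.072 without control 3, 0.061 without cRel-labelled library 2). RELB is the seventh. Among the 24 that did not pass, the costimulatory ligands CD80 and CD86 stood at -0.27 and -0.21 on the log2 scale (adjusted p = 0.051 and 0.062), the IL-2 receptor chain IL2RA at -0.93 (adjusted p = 0.068), and the NF-kB response genes NFKBIA, TRAF1 and BIRC3 at -0.17, -0.14 and 0.11.

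**Figure D2:**
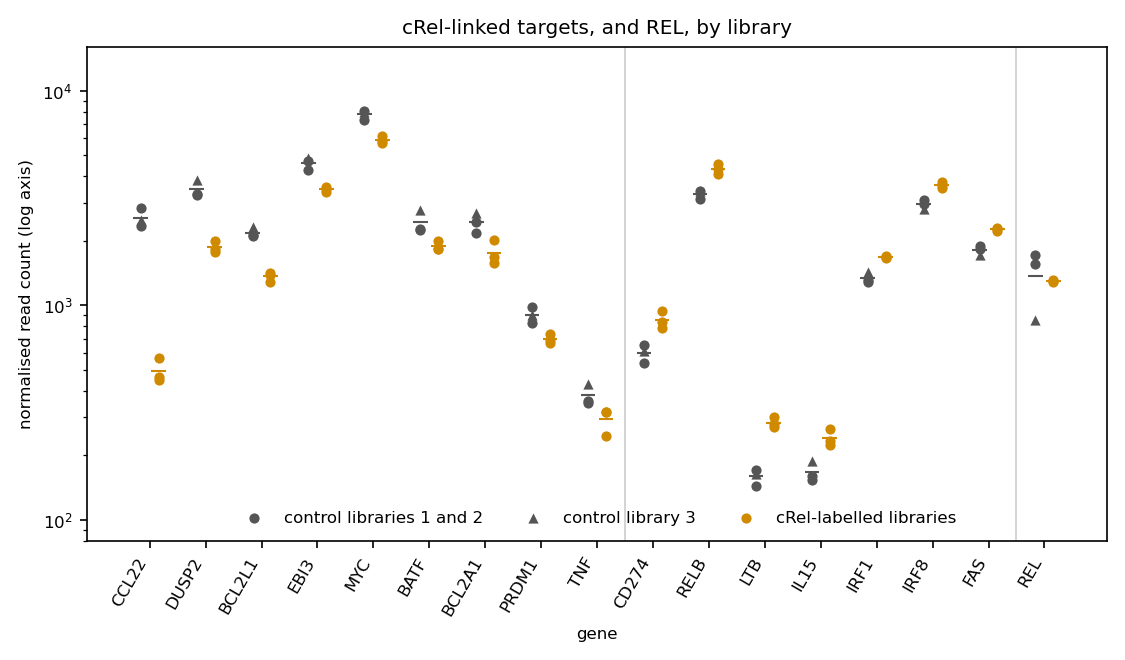
Normalised read count (vertical log axis) of 16 cRel-linked genes that passed the test, and of REL, in each control library (grey; triangle, control 3) and each cRel-labelled library (orange), with group means as bars. The 9 genes on the left fell and the 7 in the middle rose; REL, on the right, has its cRel-labelled libraries between control 3 and the other controls.

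Of 34 inhibitors and feedback regulators of NF-kB, 4 rose (11.8%, background 4.17%) and 0 fell by limma; without control 3, 3 rose. With the length correction 6 rose and 2 fell. CYLD, a deubiquitinase that restrains signalling to NF-kB, stood at 4556, 4619 and 4087 in the controls and 6137, 6402 and 6225 in the cRel-labelled libraries, 1.42-fold higher with no overlap (log2 fold change 0.50, SE 0.06, adjusted p = 1.7e-05). NFKBIZ, the nuclear inhibitor-like protein IkB-zeta, stood at 459, 496 and 397 against 648, 651 and 696 (1.48-fold). TRAF3, an adaptor that restrains the non-canonical pathway, rose 1.25-fold. TANK, a TRAF-binding protein, rose 1.18-fold (adjusted p = 0.028), a call lost in 4 fits (adjusted p = 0.096 and 0.079 without controls 2 and 3, 0.14 and 0.10 without cRel-labelled libraries 1 and 3). At an unadjusted p under 0.05 the list held 11 members that were higher and 3 that were lower, against 20.9% of all genes tested (10.8% higher and 10.2% lower), and edgeR and DESeq2 each called 4.

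Genes of the BCL2 family and other death regulators moved in both directions. Of 33 tested, 1 rose and 3 fell (12.1%, background 4.17% higher and 1.92% lower). Without control 3, 1 rose and 1 fell. BCL2L11, which encodes the death-promoting protein BIM, stood at 1645, 1574 and 1349 in the controls and 2381, 2358 and 2480.3 in the cRel-labelled libraries, so every cRel-labelled library lay above every control (1.59-fold, log2 fold change 0.66, SE 0.10, adjusted p = 1.3e-04). BCL2L1 and BCL2A1 fell, as given above. BAK1, a pore-forming death effector, fell 1.20-fold (adjusted p = 0.043), a call lost in 5 fits (adjusted p = 0.097, 0.062 and 0.12 without controls 1, 2 and 3, 0.20 and 0.12 without cRel-labelled libraries 2 and 3). BCL2A1 missed the threshold in 4 fits (adjusted p = 0.056 and 0.11 without controls 1 and 3, 0.12 and 0.096 without cRel-labelled libraries 1 and 3). BCL2 itself stood at 2518 ± 356 and 2981 ± 179 (SD, n = 3) and did not pass (adjusted p = 0.10). The median of the list was -0.07 (all genes -0.02). A log2 fold change above 0 was found in 13 of the 33, and in 5618 of all 12381 genes tested.

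Germinal-centre genes included several that rose. Of 23 tested, 6 rose, against 4.17% of all genes, with a median log2 fold change of 0.19 against -0.02 for all genes. Without control 3, 4 rose. BCL6, the repressor that defines germinal-centre B cells, stood at 199.6, 276 and 235 in the controls and 421, 455 and 439 in the cRel-labelled libraries (1.86-fold, adjusted p = 3.7e-04). RGS13, a regulator of G-protein signalling found in germinal-centre B cells, stood at 92.6, 87.7 and 89.8 against 163, 167 and 145. In both genes the groups did not overlap. KLHL6, a ubiquitin-ligase adaptor, rose 1.40-fold. LMO2, a transcriptional cofactor, rose 1.36-fold, FAS 1.25-fold and the chemokine receptor CXCR4 1.22-fold, and these depended on single libraries: LMO2 (0.067 and 0.063 without controls 2 and 3, 0.092 and 0.065 without cRel-labelled libraries 1 and 3), FAS (0.072 without control 3, 0.061 without cRel-labelled library 2) and CXCR4 (0.16 and 0.054 without controls 1 and 2, 0.15 and 0.12 without cRel-labelled libraries 2 and 3).

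Of 26 B-cell identity factors, 5 rose and 2 fell (26.9%, background 6.09%); without control 3, 5 rose and 1 fell (background 3.88%). EBF1, an early B-cell factor, rose 1.33-fold, TCF4, an E protein, 1.34-fold, and POU2AF1, a coactivator of octamer-binding factors, 1.29-fold. TCF4 stood at 1896, 2043 and 1867 in the controls and 2579.5, 2449 and 2774 in the cRel-labelled libraries. KLF2, a zinc-finger factor of lymphocyte quiescence and homing, showed the largest fold of the 7 and stood at 459.8, 621 and 672 against 328, 277 and 352 (log2 fold change -0.86, SE 0.13, adjusted p = 1.4e-04). IRF8 also rose, while SPIB rose 1.18-fold and the E protein TCF3 fell 1.23-fold, with calls that were lost in other fits: SPIB (0.12 and 0.13 without controls 1 and 2, 0.075, 0.14 and 0.11 without cRel-labelled libraries 1, 2 and 3) and TCF3 (0.070 and 0.15 without controls 2 and 3, 0.18 and 0.096 without cRel-labelled libraries 2 and 3). Among 34 genes of the B-cell receptor and its coreceptors, 3 rose and 1 fell (11.8%). CD22, an inhibitory coreceptor, rose 1.31-fold, and PIK3AP1, an adaptor of PI3-kinase signalling, stood at 6072, 6398 and 5416 in the controls and 7711, 7937 and 7969 in the cRel-labelled libraries. The inhibitory receptor LILRB1 rose 1.19-fold and CR2, the complement receptor through which EBV enters B cells, fell 1.31-fold, and both calls depended on libraries: LILRB1 (0.075 without control 1, 0.061 and 0.12 without cRel-labelled libraries 1 and 3) and CR2 (0.14 without control 1, 0.20 without cRel-labelled library 1). In the plasma-cell programme 1 of 24 rose (POU2AF1) and 3 fell (PRDM1, MZB1 and FKBP11), 16.7% against 6.09% of all genes. All of these 3 falls were lost without control 3: PRDM1 (0.092 and 0.068 without controls 2 and 3, 0.081 and 0.12 without cRel-labelled libraries 1 and 2), MZB1 (0.21 without control 3, 0.073, 0.080 and 0.11 without cRel-labelled libraries 1, 2 and 3) and FKBP11 (0.24 without control 3, 0.056, 0.12 and 0.11 without cRel-labelled libraries 1, 2 and 3).

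Chemokines and their receptors other than CCL22 were higher where they passed. Of 20 tested, 6 rose and 1 fell (35%, background 6.09%). The same counts were found without control 3 (background 3.88%), with 7 genes called in both fits. CCL19, a ligand of CCR7, was nearly silent in the controls, at 5.51, 1.97 and 8.40, and stood at 27.1, 35.7 and 34.7 in the cRel-labelled libraries (log2 fold change 2.55, SE 0.42, adjusted p = 4.1e-04). The CXCR3 ligands CXCL9 and CXCL10 stood at 8.82, 20.7 and 22.0 and 411, 474 and 524 in the controls. In the cRel-labelled libraries CXCL9 stood at 47.9, 48.5 and 48.3 and CXCL10 at 809, 699 and 769. Each of these 3 ligands showed all cRel-labelled libraries above all controls. ACKR1, an atypical receptor that binds chemokines without signalling, stood at 18.7 or less in the controls, against 51.0, 88.8 and 66.9 in the cRel-labelled libraries (4.12-fold higher). CCR8, a receptor for CCL1, rose 1.37-fold and CXCR4, the receptor for CXCL12, 1.22-fold (adjusted p = 0.16 and 0.054 without controls 1 and 2, 0.15 and 0.12 without cRel-labelled libraries 2 and 3).

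Interleukins and their receptors gave the largest count of rises among the immune lists. Of 41 tested, 11 rose and 3 fell (34.1%, background 6.09%), with a median log2 fold change of 0.11. Without control 3, 12 rose and 3 fell (background 3.88%), and all 14 were called in both fits. Among the receptors, IL10RA stood at 1332, 1418 and 1337 in the controls and 2027, 2254 and 2176 in the cRel-labelled libraries (log2 fold change 0.66, SE 0.07, adjusted p = 2.3e-06). IL18R1 stood at 380.4, 369.7 and 348 against 587, 675 and 653 and IL3RA, the IL-3 receptor alpha chain, at 805, 741 and 963 against 1312, 1371 and 1319.8. No control library reached a cRel-labelled one in any of these 3. CSF2RB, the beta chain shared by the receptors for IL-3, IL-5 and GM-CSF, rose 1.58-fold, IL1R1 1.60-fold, IL6ST, the signalling chain gp130, by 0.59 on the log2 scale, and IL27RA, a receptor chain for the EBI3-containing cytokine IL-27, 1.31-fold. IL7R rose 1.33-fold (adjusted p = 0.097 without cRel-labelled library 3). Among the ligands, IL7, a survival factor of lymphocytes, stood at 115, 92.7 and 97.6 against 188, 172 and 197, and IL15 and IL16 rose 1.44-fold and 1.34-fold, IL16 with an adjusted p of 0.054 under the length correction. The 3 that fell were EBI3, the IL-6 receptor IL6R, at 232, 288 and 281 in the controls and 157, 172 and 179.6 in the cRel-labelled libraries, and IL36G, an epithelial cytokine of the IL-1 family, at 31.5 ± 2.56 against 9.89 ± 1.46 (SD, n = 3). Gene members of cytokine signalling noticed after their values were seen were the kinase JAK1, at 3755 ± 355 and 5295 ± 96.9 (1.41-fold higher), and the interferon-gamma receptor IFNGR1, at 3057 ± 133 and 3994 ± 70.5 (1.31-fold higher, SD, n = 3).

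In the TNF superfamily 6 of 34 tested genes rose and 1 fell (20.6%, background 6.09%). Without control 3, 4 rose and 0 fell by limma (background 3.88%), and 4 of the 7 were called in both fits. TNFSF13B, the B-cell survival factor BAFF, stood at 118, 118 and 134 in the controls and 246, 258 and 247 in the cRel-labelled libraries, 2.02-fold higher with no overlap (log2 fold change 1.01, SE 0.12, adjusted p = 5.6e-06). TNFRSF11A, the receptor RANK, stood at 958, 800.5 and 742 against 1106, 1251 and 1175, and TNFRSF9, the costimulatory receptor 4-1BB, rose 1.67-fold. LTB rose 1.78-fold. TNFRSF10D, a decoy receptor for TRAIL, rose 1.53-fold, FAS rose and TNF fell, and these 3 depended on single libraries: TNFRSF10D (0.070 without control 3, 0.064 without cRel-labelled library 3), FAS (0.072 without control 3, 0.061 without cRel-labelled library 2) and TNF (0.052 and 0.25 without controls 1 and 3, 0.24 without cRel-labelled library 2). Beside CD274, PDCD1LG2, which encodes the second PD-1 ligand PD-L2, rose 1.44-fold (adjusted p = 0.013), a call lost in 3 fits (adjusted p = 0.068 and 0.068 without controls 1 and 3, 0.092 without cRel-labelled library 3). In the SLAM family of lymphocyte receptors, 3 of 7 rose and 0 fell by limma (42.9%, background 6.09%). At an unadjusted p under 0.05, 4 were higher and 0 lower, and edgeR called 4 and DESeq2 3. LY9 stood at 441, 347 and 400.1 in the controls and 541, 554 and 563 in the cRel-labelled libraries, CD84 rose 1.34-fold, and CD244 rose 1.38-fold (adjusted p = 0.11, 0.068 and 0.10 without controls 1, 2 and 3, 0.056, 0.16 and 0.15 without cRel-labelled libraries 1, 2 and 3).

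The GIMAP genes, small GTPases that set lymphocyte survival and lie side by side on chromosome 7, were lower as a group. Of 7 tested, 5 fell and 0 rose by limma, 71.4% against a background of 1.92% lower, and the same 5 were called without control 3. At an unadjusted p under 0.05, 6 were lower and 0 higher, and edgeR and DESeq2 each called 5. GIMAP5 stood at 362, 339 and 438 in the controls and 158, 159 and 178 in the cRel-labelled libraries, with every cRel-labelled library below every control (log2 fold change -1.19, SE 0.09, adjusted p = 2.9e-08). GIMAP7 stood at 382, 401 and 511 against 228, 221 and 232, and GIMAP4 at 259, 239 and 255 against 139.6, 135 and 153. GIMAP1 fell 1.76-fold and GIMAP6 fell 1.40-fold, from 2396 ± 128 to 1715 ± 104 (SD, n = 3). GIMAP8, at the start of the run, did not pass (-0.26, adjusted p = 0.079), and GIMAP2, between GIMAP6 and GIMAP1, stood at -0.09 (adjusted p = 0.63). Reads of neighbouring GIMAP genes that share a read-through transcript could be split by counting.

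Guanylate-binding proteins, interferon-induced GTPases that act on intracellular pathogens, went the other way. Of 5 tested, 4 rose and 0 fell by limma (80%, background 4.17%), 2 of them also without control 3; edgeR and DESeq2 each called 4, and at an unadjusted p under 0.05, 4 were higher and 0 lower. GBP4 stood at 339, 327 and 303 in the controls and 679, 715 and 757 in the cRel-labelled libraries, 2.22-fold higher (log2 fold change 1.15, SE 0.09, adjusted p = 1.2e-08), and GBP1 stood at 358, 389 and 405 against 644, 586 and 635 (1.62-fold). The groups were far apart in both. GBP2, at 87.0 ± 6.63 and 125 ± 13.7, and GBP6, at 4.91 ± 1.83 and 15.5 ± 8.86 (SD, n = 3), passed with adjusted p = 0.040 and 0.025, and were lost in several fits: GBP2 (0.12, 0.051 and 0.083 without controls 1, 2 and 3, 0.16 and 0.14 without cRel-labelled libraries 2 and 3) and GBP6 (0.097 and 0.078 without controls 1 and 3, 0.060 and 0.20 without cRel-labelled libraries 2 and 3). GBP3 did not pass (0.46, adjusted p = 0.33). These genes are close relatives, and reads could be split among them.

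Interferon-stimulated genes as a whole did not share a direction. Of 40 tested, 5 rose and 4 fell (22.5%, background 6.09%), with a median log2 fold change of -0.05. Without control 3, 4 rose and 2 fell (background 3.88%). PARP9 and DTX3L, an ADP-ribosyltransferase and its ubiquitin-ligase partner encoded side by side on chromosome 3, rose 1.65-fold and 1.56-fold. PARP9 stood at 319.8, 336 and 329.6 in the controls and 519, 546 and 568 in the cRel-labelled libraries. The neighbouring PARP14 and PARP15, noticed after their values were seen, rose too: PARP14 stood at 2610.2, 2592 and 1963 in the controls and 3742, 3955 and 4002 in the cRel-labelled libraries, and PARP15 at 1113 ± 59.0 and 1464 ± 78.7 (SD, n = 3). IFIH1, the RNA sensor MDA5, rose 1.37-fold and IFIT3 1.32-fold. In contrast, IFITM1, an antiviral membrane protein, stood at 551, 516 and 578 in the controls and 303, 225 and 314 in the cRel-labelled libraries (log2 fold change -0.98, SE 0.11, adjusted p = 4.4e-06), and its neighbour IFITM2, noticed after its values were seen, fell 1.58-fold. The IFITM genes are near-identical in part, and their reads could be split. HERC6 rose 1.39-fold, while USP18, IFI44L, ISG15 and IFIT1 fell 1.29, 1.88, 1.39 and 1.88-fold, and these calls depended on single libraries: HERC6 (0.094 without control 3, 0.072 and 0.074 without cRel-labelled libraries 2 and 3), USP18 (0.075 without cRel-labelled library 3), IFI44L (0.081 and 0.082 without controls 2 and 3, 0.059 and 0.13 without cRel-labelled libraries 1 and 3), ISG15 (0.16 without control 3, 0.090 and 0.11 without cRel-labelled libraries 1 and 3) and IFIT1 (0.070, 0.093 and 0.17 without controls 1, 2 and 3, 0.20 and 0.15 without cRel-labelled libraries 1 and 3).

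**Figure D3:**
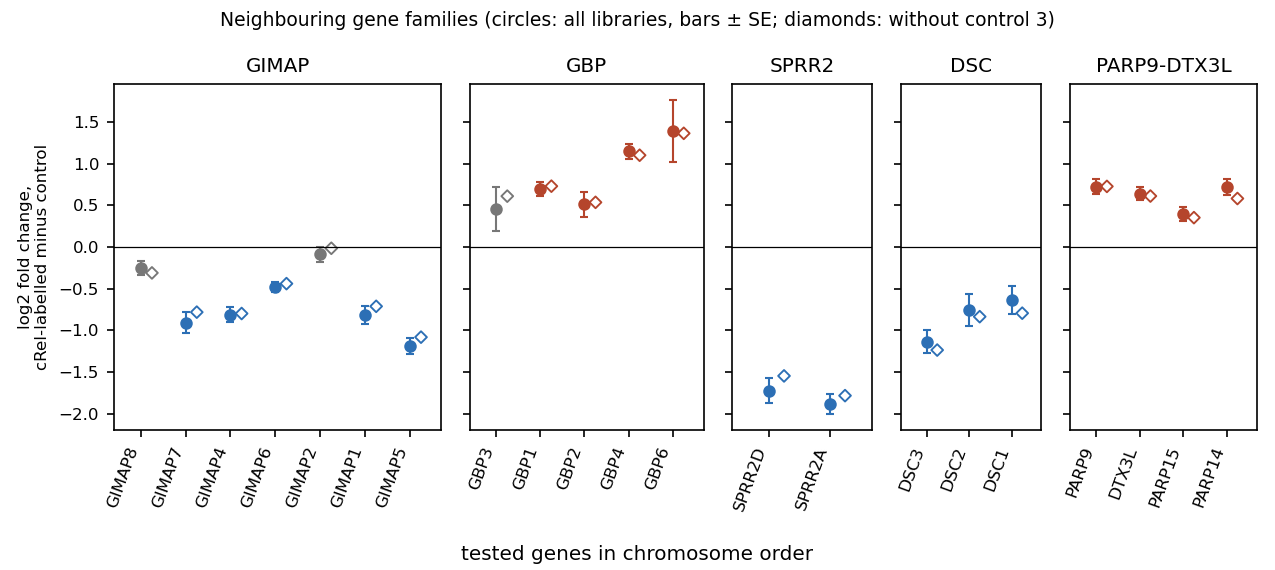
Log2 fold change of cRel-labelled against control libraries (vertical axis) for the tested members of 5 gene runs in chromosome order (horizontal axis). Filled circles with bars show the estimate ± SE from all libraries, open diamonds the estimate without control 3, red called higher, blue called lower and grey not called; the GIMAP, SPRR2 and DSC runs lie below 0 and the GBP and PARP9 runs above it.

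Genes of the cornified envelope and epithelial barrier were lower where they passed. Of 15 tested, 4 fell and 0 rose by limma (26.7%, background 1.92% lower). The same counts were found without control 3 (background 1.12% lower). At an unadjusted p under 0.05, 1 was higher and 4 lower, and edgeR and DESeq2 each called 4. SPRR2A stood at 174, 166 and 211 in the controls and 49.0, 49.4 and 47.4 in the cRel-labelled libraries, and SPRR2D at 97.0, 108 and 149 against 37.5, 35.7 and 30.5. Every control exceeded every cRel-labelled library by more than 2-fold in both. TGM5, an epidermal transglutaminase that cross-links the envelope, stood at 708, 681 and 752 against 480.3, 478 and 508 (log2 fold change -0.54, SE 0.07, adjusted p = 2.8e-05). The desmosomal cadherin DSC2 fell 1.69-fold, and its neighbours on chromosome 18, DSC3 and DSC1, noticed after their values were seen, fell 2.20-fold and 1.55-fold. DSC3 stood at 110.3, 103 and 86.0 in the controls and 44.8, 37.5 and 52.5 in the cRel-labelled libraries, while the other two were less certain: DSC2 (0.10 without control 1, 0.13 without cRel-labelled library 1) and DSC1 (0.14 without control 1, 0.12 and 0.14 without cRel-labelled libraries 2 and 3). DSCAS, an antisense RNA of this run, stood at 5.21, 2.75 and 7.62 in the cRel-labelled libraries, with every control at 13.2 or more, and since the counting is not stated to use strand its reads cannot be told from those of its partners. The epithelial markers CDH1 and EPCAM were present at 112 to 169 and 29.2 to 36.4 across the 6 libraries, while KRT8 and KRT18 were at 5.91 or less.

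Integrins that passed were all higher, while the median of the family was -0.03 on the log2 scale. Of 25 integrins, 6 rose (24%, background 4.17%) and 0 fell by limma, and all 6 were called without control 3 too. At an unadjusted p under 0.05, 8 were higher and 3 lower, and edgeR called 7 and DESeq2 6. ITGAM, the alpha chain CD11b, stood at 118, 127 and 122 in the controls and 267, 242 and 247 in the cRel-labelled libraries (log2 fold change 1.04, SE 0.12, adjusted p = 4.4e-06). ITGA9 stood at 34.2, 26.6 and 27.1 against 95.8, 92.4 and 87.3, 3.08-fold higher, and ITGA7, a laminin receptor chain, rose 1.74-fold. ITGA5, of the fibronectin receptor, rose 1.42-fold, ITGA4, of the receptor for VCAM1, 1.35-fold and ITGB3 1.41-fold. VCAM1 itself stood at 862, 831 and 761 in the controls and 1318, 1248 and 1177 in the cRel-labelled libraries, with no overlap. In the list of extracellular-matrix and basement-membrane genes 7 of 39 rose and 1 fell (20.5%, background 6.09%). Without control 3, 7 rose and 2 fell (background 3.88%), and with the length correction 7 rose and 3 fell (background 6.91%). FRAS1, TGM2, the collagen genes COL5A3 (2.01-fold) and COL6A1 (2.05-fold), the gelatinase MMP9 (2.61-fold) and the fibrillin FBN1 (1.35-fold) were among those that rose. With a mean of at least 100 required, 4 genes of this list rose and 0 fell by limma.

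In the semaphorin, plexin and guidance list 6 of 31 rose, SEMA5A among them, and 1 fell (22.6%, background 6.09%). Without control 3, 4 rose and 1 fell. Focal-adhesion and actin regulators split, with 7 of 52 higher and 5 lower (23.1%, background 6.09%). Without control 3, 4 rose and 4 fell (background 3.88%), and 3 fell without cRel-labelled library 1. Beside TNS3, the scaffold NEDD9 rose 1.38-fold and the exchange factor DOCK10 stood at 1709, 2022 and 1651 in the controls and 2546, 2761 and 2851 in the cRel-labelled libraries. The filament protein VIM stood at 3286, 3272 and 3831 against 4391, 4688 and 4349.9, a rise of 1.30-fold with no overlap. LMNA, which encodes the nuclear lamins A and C, went the other way, at 4116, 3547 and 3574 in the controls and 2235, 2459.5 and 1936 in the cRel-labelled libraries (log2 fold change -0.76, SE 0.10, adjusted p = 3.9e-05). TNS1, the relative of TNS3, fell from 26.0 ± 4.30 to 5.96 ± 3.72 (SD, n = 3), a range in which few reads were counted.

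Signalling families held calls in both directions; over all genes, 516 of the 754 calls were higher. Of 42 phosphoinositide kinases and phosphatases, 6 rose and 0 fell by limma (14.3%, background 6.09% in either direction), with 10 higher and 0 lower at an unadjusted p under 0.05, and edgeR called 7 and DESeq2 6. PIK3CG, the catalytic subunit of the leukocyte PI3-kinase gamma, stood at 164, 127 and 101 in the controls and 239.6, 210.5 and 229.6 in the cRel-labelled libraries, and PIK3CA and PIK3C2B rose 1.42-fold and 1.31-fold. Of 17 dual-specificity phosphatases, DUSP5, DUSP8 and DUSP16 rose 1.45, 2.22 and 1.30-fold while DUSP2 fell (23.5%). The call of DUSP16 was lost in 3 fits (adjusted p = 0.11 without control 3, 0.058 and 0.086 without cRel-labelled libraries 2 and 3). Of 14 RGS regulators of G-protein signalling, 3 rose and 1 fell (28.6%, background 6.09%). However, 1 rose without control 1 and without cRel-labelled library 1 or 3, and 4 rose and 2 fell with the length correction. With a mean of at least 100 required, 1 rose and 1 fell. RGS16 was the member that fell, at 1649, 1781 and 2086 against 1192, 1321 and 1133, and RGS13 rose. Toll-like receptors TLR1 and TLR6, partners of TLR2, rose 1.43-fold and 1.42-fold, the peptidoglycan sensor NOD2 stood at 261, 296 and 252 in the controls and 392, 408 and 380.4 in the cRel-labelled libraries, and TMEM173, the DNA-response adaptor STING, fell 1.39-fold. In the Notch pathway the ligands DLL4 and JAG1 and the ubiquitin ligase DTX4 rose 2.92, 1.78 and 1.39-fold, 3 of 33 (9.09%), with 0 lower by limma, 6 higher and 2 lower at an unadjusted p under 0.05 (10.8% and 10.2% over all genes), and 3 called by edgeR and by DESeq2. In the TGF-beta pathway 2 of 36 rose and 3 fell (13.9%, background 6.09%). The effector SMAD3 and the corepressor TGIF1 rose 1.32-fold and 2.02-fold, while FSTL3, the coreceptor TGFBR3 (1.55-fold) and the inhibitor SMAD7 (1.32-fold) fell. The call of SMAD7 was lost in 2 fits (adjusted p = 0.052 without control 1, 0.064 without cRel-labelled library 3).

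Members of the MYC and glycolysis lists that passed were lower, by small amounts. Of 38 genes of the MYC and ribosome-biogenesis list, 5 fell and 0 rose by limma (13.2%, background 1.92%), with 1 fall without control 3; leaving out cRel-labelled library 2 gave 2, and leaving out cRel-labelled library 1 or 3 gave 3. At an unadjusted p under 0.05, 14 were lower and 1 higher, and edgeR called 4 and DESeq2 7. MYC was the only one of the 5 also called without control 3. Of 36 glycolysis and hypoxia genes, 5 fell and 0 rose by limma (13.9%, background 1.92% lower). There were 2 falls without control 3 or cRel-labelled library 3 and 1 without control 1 or cRel-labelled library 1 or 2. At an unadjusted p under 0.05, 9 were lower and 1 higher, and edgeR called 3 and DESeq2 7. P4HA2, a collagen prolyl hydroxylase, stood at 1073, 933 and 973 in the controls and 700.1, 646 and 668 in the cRel-labelled libraries (log2 fold change -0.56, SE 0.09, adjusted p = 2.6e-04). Of 34 ATF4 and amino-acid response genes, 1 rose and 4 fell (14.7%, background 6.09%), and 2 fell without control 3 or cRel-labelled library 2 or 3. The rise was that of SLC7A11, a call lost without control 3 or cRel-labelled library 1, 2 or 3. PHGDH, the first enzyme of serine synthesis, stood at 742, 714 and 796 against 583, 553 and 535. Of 36 fatty-acid and lipid metabolism genes, 4 rose (LPIN1, LPIN2, ELOVL7 and ACSL1) and 1 fell (FADS1), 13.9% against 6.09% of all genes. Without control 3 there were 2 rises and the call of FADS1 was lost. There was 1 rise without cRel-labelled library 3, so calls of this list depended on libraries. Of 81 cytosolic ribosomal proteins, 0 passed by limma, edgeR or DESeq2, 30 were lower and 0 higher at an unadjusted p under 0.05, and the median log2 fold change was -0.19, or -0.09 without control 3. Of 72 nuclear-encoded respiratory-chain genes, 0 passed by limma or edgeR and 1 by DESeq2, with 9 lower and 0 higher at an unadjusted p under 0.05 and a median of -0.14, or -0.04 without control 3. With the length correction the medians were -0.11 for the ribosomal proteins and -0.07 for the respiratory chain.

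**Figure D4:**
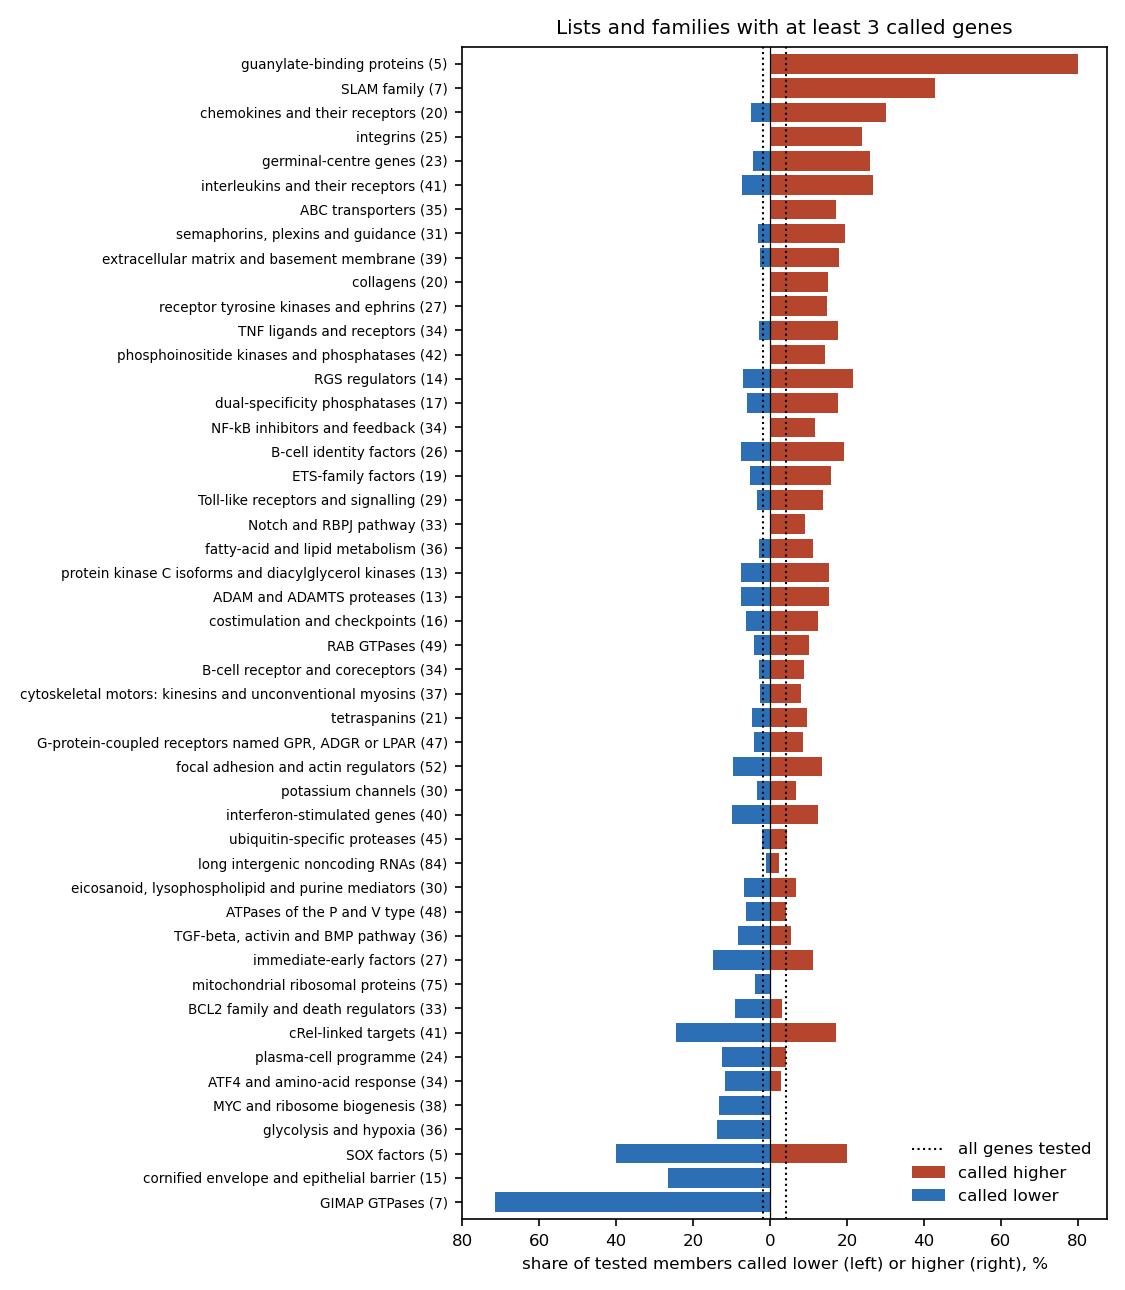
Share of tested members called higher (red, right) or lower (blue, left) for lists and families of 5 to 84 tested genes with at least 3 calls; the number tested is in brackets and dotted lines mark 4.17% higher and 1.92% lower over all genes. The guanylate-binding proteins and the GIMAP GTPases stand at opposite ends, at 80% higher and 71.4% lower.

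Markers of other cell types were read beside these immune and adhesion genes. The monocyte and macrophage list summed to 747 to 793 in the controls and 949.8 to 1072 in the cRel-labelled libraries, and 3 of its 4 tested members, ITGAM, MS4A7 and VCAN, rose. The defining markers CD14, LYZ, CD68, S100A8 and S100A9 were at 8.33 or less in all 6 libraries, and CSF1R did not pass (-0.14, adjusted p = 0.40). MS4A7 stood at 230.5, 198 and 195 against 316, 342 and 378, and VCAN passed in all but 3 fits (adjusted p = 0.13 without control 1, 0.057 and 0.13 without cRel-labelled libraries 2 and 3). The part of such cells in the results was not tested. The T and NK list summed to 453 to 608 in the controls and 366 to 391 in the cRel-labelled libraries, most of it from NKG7, which fell 1.36-fold (adjusted p = 0.070 without control 3); CD3D was at 1.10 or less and CD28 at 0. Of the erythroid and platelet markers none passed the filter, and of the 4 tested fibroblast and epithelial markers 0 passed by limma, edgeR or DESeq2 and 0 at an unadjusted p under 0.05.

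The cRel-labelled libraries were also compared directly with each other knockout. The control mean does not enter these differences, but the controls were part of the fit that set the spread. They differed from the RelA knockout in 1356 genes (11%), from the p50 knockout in 3855 (31.1%), from the p52 knockout in 5681 (45.9%) and from the RelB-labelled libraries in 8144 (65.8%). Genes called cRel-only here had to pass against the control and, in the same direction, against all 4 other knockouts. There were 120 such genes, 0.969% of those tested, 63 higher (0.509%) and 57 lower (0.46%), and 94 of them met the rule without control 3 as well. The count was 78 and 77 without cRel-labelled libraries 2 and 3, and lay between 77 and 119 whichever of the 6 libraries was left out. By this rule the cRel-labelled group held the highest or the lowest mean of the 6 groups in all 120, which the rule itself brings about. In 96 of the 120 at least 1 other knockout had passed against the control in the opposite direction, so that its difference from the cRel-labelled group holds both changes, and in 12 no other knockout passed against the control in either direction. A further 137 of the 754 genes differed in the same direction from 3 other knockouts, 147 from 2, 201 from 1 and 149 from 0.

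Against all 5 other groups, 8 cRel-only genes were lower by at least 2-fold and 2 were higher. The lower ones were CCL22, SPRR2A, GIMAP5 and 5 genes with few reads, C1QTNF1, TNS1, DSCAS, LINC00958 and ATP9A. CCL22 had a mean of 494 in the cRel-labelled libraries, 2559 in the control, 1355 in the p50 knockout, 2120.5 in the p52 knockout, 1839 in the RelA knockout and 7254 in the RelB-labelled libraries. The difference nearest to 0 was that from the p50 knockout (-1.46, adjusted p = 4.4e-12). C1QTNF1, a secreted protein with a C1q domain, stood at 49.6, 20.7 and 37.5 in the controls and 3.13, 5.49 and 5.08 in the cRel-labelled libraries, with means of 24.9 to 66.3 in the other knockouts. LINC00958, a long noncoding RNA, and the flippase ATP9A had control means of 16.5 and 18.7, and the call of LINC00958 depended on libraries (adjusted p = 0.053 and 0.063 without controls 2 and 3, 0.084 without cRel-labelled library 3). The 2 higher genes were ACKR1, with means of 6.66 to 33.1 in the other knockouts against 68.9 in the cRel-labelled libraries, and NTNG1, with means of 24.3 to 48.0 against 140.5; the call of NTNG1 depended on libraries (adjusted p = 0.060 without control 1, 0.054 and 0.052 without cRel-labelled libraries 1 and 3).

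The cRel-only genes named next were grouped by their known roles after their values were seen. GIMAP1, GIMAP4, GIMAP5 and GIMAP6 were lowest in the cRel-labelled group; GIMAP5 had means of 431 to 624 in the other knockouts. The epithelial genes SPRR2A, SPRR2D, TGM5, DSC1, DSC2 and DSC3 were lowest too, DSC1 and DSC2 with calls that depended on libraries: DSC1 (0.14 without control 1, 0.12 and 0.14 without cRel-labelled libraries 2 and 3) and DSC2 (0.10 without control 1, 0.13 without cRel-labelled library 1). KIF26B, FAM102B, LMNA, the actin-binding NEB, the transcription factor SOX18 and the chromodomain gene CDYL2 were also lowest; KIF26B had means of 799 to 1189 in the other knockouts. On the higher side stood BCL6, TCF4, BCL2L11, RGS13, PIK3CG and PIK3AP1, which have roles in B cells. The B-cell coreceptor CR2 met the cRel-only rule in the other direction, as lower. The call of CR2 depended on libraries (adjusted p = 0.14 without control 1, 0.20 without cRel-labelled library 1). BCL6 had a mean of 438 in the cRel-labelled libraries and 237 in the control, against 175, 187, 226 and 37.6 in the p50, p52, RelA and RelB-labelled groups. BCL2L11 had a mean of 2406 against 725 to 1566 in the other knockouts. TNS3, SEMA5A, IPCEF1, BMP2K, a kinase (2.05-fold above the control), NR4A2, the ubiquitin ligase PDZRN3 (1.93-fold) and the kinase SGK1 (1.61-fold) were highest in the cRel-labelled group as well. The call of SGK1 was lost in 3 fits (adjusted p = 0.075 without control 3, 0.10 and 0.067 without cRel-labelled libraries 1 and 2).

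Under a stricter rule, 12 of the 120 genes also failed to pass in every other knockout against the control, 7 higher and 5 lower. A gene that misses the threshold in another knockout is not shown to be unchanged there. The higher ones were PIK3AP1, the kinase TYK2, the p53 relative TP63, the oestrogen receptor ESR2, TANK, ENDOD1 and SLC37A2, and the lower ones TNS1, ATP9A, LINC00958, PHF21B and CMTM3. PIK3AP1 had a mean of 7872 ± 140.2 in the cRel-labelled libraries against 5962 ± 500.0 in the control and 5516 to 5767 in the other knockouts, and ESR2 had 114 ± 1.41 against 68.8 ± 10.9 and 56.4 to 86.6 (SD, n = 3). Most of the others depended on libraries: TYK2 (0.084 without control 1, 0.097, 0.058 and 0.052 without cRel-labelled libraries 1, 2 and 3), TP63 (0.062 without control 1, 0.075 without cRel-labelled library 3), TANK (0.096 and 0.079 without controls 2 and 3, 0.14 and 0.10 without cRel-labelled libraries 1 and 3), ENDOD1 (0.078 without control 1, 0.067 and 0.13 without cRel-labelled libraries 2 and 3), SLC37A2 (0.13 and 0.11 without controls 2 and 3, 0.14, 0.10 and 0.087 without cRel-labelled libraries 1, 2 and 3), LINC00958 (0.053 and 0.063 without controls 2 and 3, 0.084 without cRel-labelled library 3), PHF21B (0.062 without control 1, 0.099 without cRel-labelled library 3) and CMTM3 (0.055 and 0.15 without controls 1 and 3, 0.091 and 0.16 without cRel-labelled libraries 1 and 2).

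**Figure D5:**
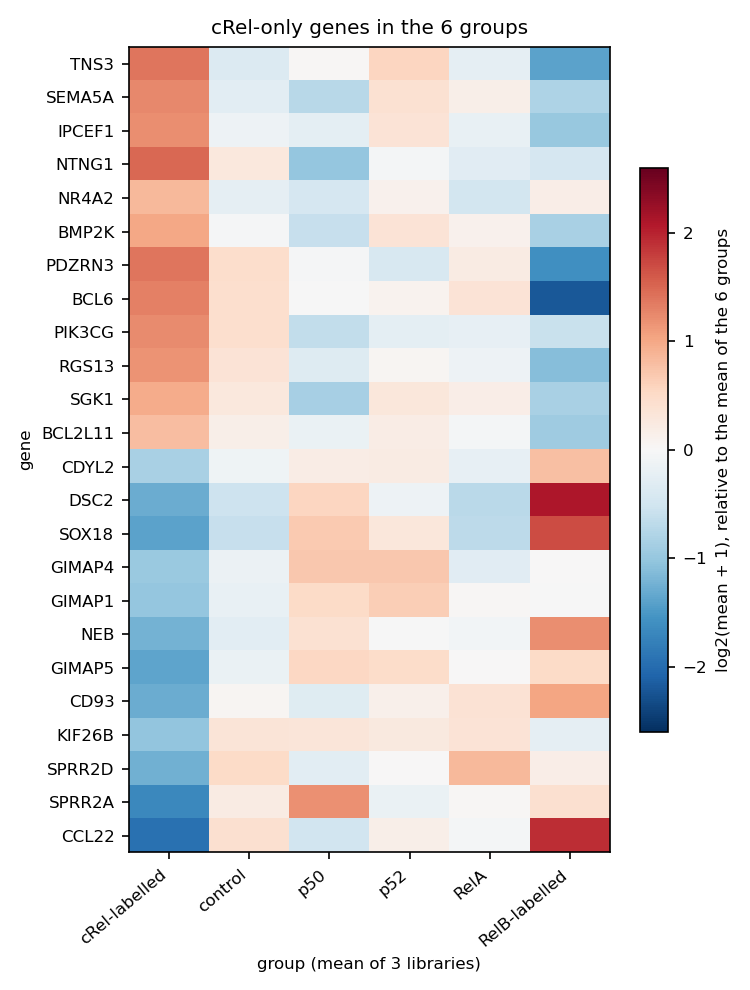
Group means of the 24 named cRel-only genes (rows) in the 6 groups (columns), as log2(mean + 1) relative to the mean of the 6 groups (colour scale). The cRel-labelled column holds the highest value in the upper 12 genes and the lowest in the lower 12, as the rule requires, while the RelB-labelled column is far from the control for BCL6, CCL22, DSC2 and SOX18.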

How the data were processed

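Polyadenylated RNA of 18 GM12878 libraries, 3 in each of 6 groups, was sequenced from 1 µg of total RNA per library after directional library preparation, per the labels' protocols. The tools named are STAR 2.5.2b, featureCounts 1.5.1 and DESeq2 1.14.1, with build GRCh37, per the submitters' processing notes. The deposited values are a signal, read counts per gene divided by a size factor of each library: 100% of 308790 values were whole reads within 0.0001 once multiplied out. No source at hand says whether counting used strand.

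Genes with a mean of at least 10 over all libraries were tested with limma 3.58.1 (trend) in R 4.3.3 on log2(value + 1), with the 6 group means fitted over all 18 libraries. Fold changes are on that scale, which understates low genes, and p-values were adjusted by Benjamini-Hochberg over all 12381 genes and called at 0.05. A count or adjusted p with no tool named comes from this fit. edgeR 4.0.16 and DESeq2 1.42.0 were run on the recovered reads as alternatives. The procedure was tested on simulated data. Other settings changed the pseudocount, the filter, the scaling, a correction for transcript length (the longest GENCODE transcript of each gene), the libraries and a term for the replicate number. Same-numbered cRel-labelled and control libraries did not deviate together (correlations -0.068, -0.081 and -0.057), and replicates were not paired. This check covered these groups alone, so it does not settle whether replicate number matters over all 18 libraries. Counts with replicate number as a block are given below.

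Named genes are the 5 subunit genes, the 15 highest and 15 lowest called fold changes with a group mean of at least 100, up to 4 called members of each list with at least 3, and 12 cRel-only genes each way. The 15 each way also had all cRel-labelled libraries on one side of all controls, so their lack of overlap was set by the rule. Further list members were named after their values were seen. The members, lists and rules were chosen with earlier results of these data known. Some results on single genes and families are not reported here.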

Additional observations from a re-analysis of the deposited data

Results flagged for a closer look

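The 15 highest and 15 lowest genes were searched for opposite changes of at least 2-fold against the control. In 5 of them the cRel-labelled libraries and another knockout lay that far on opposite sides of the control. The search also required a pass of the other knockout against the control and of the direct contrast, by limma with Benjamini-Hochberg adjustment. These passes are therefore conditions of the search and not results. Every library of one knockout was above and every library of the other below the controls they share. The ranking rule itself required this of the cRel-labelled libraries. Smaller opposite changes, and those of other genes, are not listed here. CCL22 differed by -3.88 on the log2 scale between the cRel-labelled and RelB-labelled libraries (-2.37 and 1.51 against the control, means of 494 and 7254, adjusted p = 2.2e-20). TNS3 differed by 2.79 from the RelB-labelled libraries (1.74 and -1.05 against the control, adjusted p = 2.0e-12). KIAA1671 differed by 2.93 (1.44 and -1.50, adjusted p = 3.7e-11) and SMIM14 by 2.59 (1.26 and -1.33, adjusted p = 7.2e-16) from the same group. NTNG1 differed by 2.55 from the p50 knockout (1.22 and -1.33, adjusted p = 1.1e-06). Groups of 3 libraries are too small for a test of outlying samples.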

How the results depend on the processing

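Leaving out 1 control or cRel-labelled library at a time gave 448 to 821 called genes, 314 to 543 of them higher and 134 to 278 lower, and 77 to 119 cRel-only genes; the lowest counts came without cRel-labelled library 3. The log2 fold change of REL ran from -0.33 to 0.17, with 0.098 without control 1 and 0.17 without control 2. With replicate number as a block, 940 genes were called (610 higher and 330 lower) and 138 were cRel-only. With the block and the length correction together 1110 were called, 671 higher and 439 lower. The block left 182 of the 187 named genes on the same side of the threshold. edgeR called 814 genes, 713 of them shared, and DESeq2 928, 728 of them shared. RELA was 0.00045 by edgeR and ran from -0.036 to 0.012 with 1 library left out, the latter without cRel-labelled library 2, and GIMAP2 was 0.0033 with the length correction, with or without the block. The counts over all genes and of cRel-only genes under the other settings stayed within 1.5 times of those given. Counts within lists moved more: of 57 counts of at least 3, 20 moved by more than 1.5 times without control 3, 19 without cRel-labelled library 3, 7 with the block and the length correction and 1 with the length correction alone. The cause of these shifts was not tested. At 20945886 to 37473129 reads a library, genes with means near 10 rest on few reads, and in 115 of the 754 both group means were under 100.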
